A study of Gallus gallus with 4 samples.

Results

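Of 10 genes of steroid hormone synthesis looked up by name, 8 were found among the 19309 genes of each expression table, each in a single row. Among them were 3 genes of progesterone synthesis (STAR, CYP11A1 and HSD3B2), 3 of androgen and estrogen synthesis (CYP17A1, HSD17B1 and CYP19A1) and 2 nuclear receptors that regulate the pathway (NR5A1 and NR0B1). No row carried the name FDX1 or FDXR. RNA came from granulosa cells, the layer around the oocyte of an ovarian follicle, of chickens (Gallus gallus) aged 10 to 15 months. There were 4 libraries, 1 for each of F5 proximal, F5 distal, F1 proximal and F1 distal cells. Proximal and distal refer to the germinal disc, the disc of cytoplasm around the nucleus of the oocyte, while F5 and F1 name follicles by their place in the order of ovulation, F1 being next in line. The labels name no treatment and no genotype, and give no number of birds or follicles per library.

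Steroid synthesis starts when STAR carries cholesterol into mitochondria, where CYP11A1 cleaves its side chain to give pregnenolone. HSD3B enzymes turn pregnenolone into progesterone. CYP17A1 diverts these steroids towards androgens, HSD17B1 reduces estrone to estradiol, and CYP19A1 (aromatase) makes estrogens from androgens. NR5A1 (steroidogenic factor 1) activates many genes of this pathway, and NR0B1 (DAX1) is known in mammals as a repressor of NR5A1. In large follicles of the hen, granulosa cells are known for progesterone and the surrounding theca for androgens and estrogens, and progesterone of the largest follicle takes part in the preovulatory surge of luteinizing hormone.

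Levels are FPKM, fragments counted per gene relative to gene length and sequencing depth. The libraries held 13948790 to 18020270 reads, with the fewest in F1 distal cells. The granulosa genes FOXL2, INHA and ZP3 stood at 860.9 FPKM or more in all 4, while KRT8 had at most 1 read and AMHR2 was not found. Of the other granulosa markers, AMH stood at 21.2 and 6.96 FPKM in the F5 and F1 proximal libraries and at 1.55 and 0.508 in the distal ones. WT1 had 4.62 and 4.51 FPKM in the proximal against 0.376 and 0.0780 in the distal libraries. ZP3 alone took 1.98% to 15.4% of reads. Markers of theca and stroma were low: the 13 found of 16 summed to 24.6 FPKM (F5 proximal), 20.4 (F5 distal), 17.1 (F1 proximal) and 10.2 (F1 distal). LUM stood at 0 in all 4 libraries and DCN had at most 1 read. Leukocyte markers summed to 1.39 to 2.64 FPKM over 8 genes found, with CD4 and SPI1 at 0, and erythroid markers to 0.0711 to 1.08 FPKM over 7, with HBG1, HBE and HBE1 at 0. Oocyte markers summed to 15.5 and 9.2 FPKM over 7 genes in F5 and F1 proximal cells and to 1.12 and 0.348 FPKM in distal cells. Endothelial markers summed over 9 genes to 103.6 FPKM (F5 proximal), 66 (F5 distal), 177.9 (F1 proximal) and 161.3 (F1 distal), mostly from CLDN5 and EGFL7, while CDH5, KDR, VWF and TEK reached at most 0.358 FPKM. PECAM1 and TIE1 reached 5.31 and 5.10 FPKM, and EMCN had 10.6 and 3.67 FPKM in the F5 and F1 proximal against 0.986 and 0.116 in the distal libraries. In such bulk samples, fewer cells of a type and less RNA per cell cannot be told apart.

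All 3 progesterone genes were higher in F1 than in F5 and higher in distal than in proximal cells of each follicle. STAR (ENSGALG00000003242, chromosome 22, 2263879 to 2266815) stood at 83.2 FPKM in F5 proximal, 96.2 in F5 distal, 464.4 in F1 proximal and 717.0 in F1 distal granulosa. The F1 values lay far above the F5 values, and the distal library was the higher of the pair in both follicles. From F5 to F1 the FPKM of STAR was 5.58-fold higher in proximal cells (95% exact binomial interval of the reads 5.35 to 5.83) and 7.46-fold in distal cells (7.17 to 7.76). These and all later intervals cover counting error in reads recovered from FPKM, and not differences between hens or follicles.

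CYP11A1 (ENSGALG00000001417, chromosome 10, 2056283 to 2064888) stood at 132.7 FPKM in F5 proximal, 201.6 in F5 distal, 322.4 in F1 proximal and 632.9 in F1 distal granulosa. The libraries stood in this order from the lowest to the highest. The gain from F5 to F1 was 2.43-fold in proximal (2.37 to 2.49) and 3.14-fold in distal cells (3.08 to 3.20). HSD3B2 (ENSGALG00000014764, chromosome 1, 77954029 to 77969647), a name that the RefSeq gene table holds as a synonym of HSD3B1, had the highest level of the 8 genes in every library. Its FPKM was 498.4 in F5 proximal, 682.4 in F5 distal, 1622.9 in F1 proximal and 2106.2 in F1 distal granulosa. It moved from rank 122 and rank 95 among all genes in the F5 libraries to rank 32 and rank 28 in F1. Its gain was 3.26-fold in proximal (3.21 to 3.31) and 3.09-fold in distal cells (3.05 to 3.13).

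**Figure D1:**
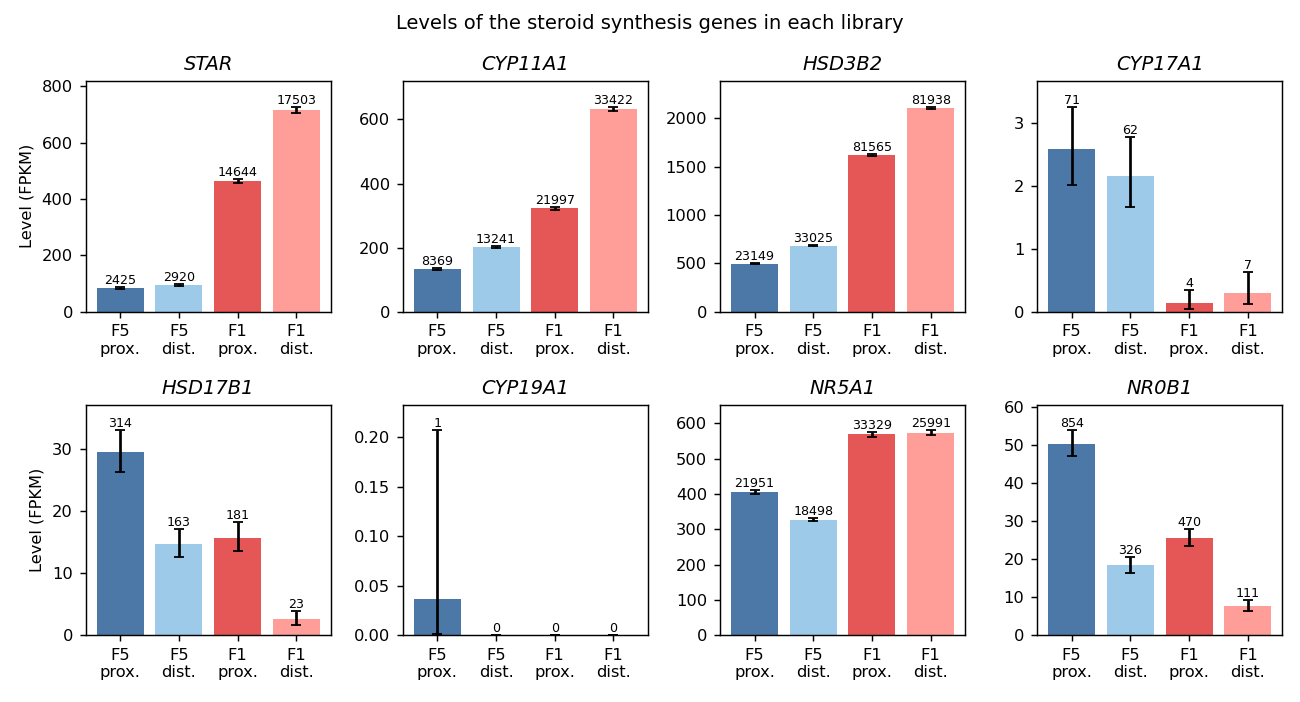
Level in FPKM (linear axes from 0) of the 8 steroid synthesis genes in the 4 libraries, 1 bar per library, with 95% Poisson counting intervals and recovered reads above the bars; no interval is drawn at 0 reads. STAR, CYP11A1 and HSD3B2 were highest in F1 distal cells, HSD17B1 and NR0B1 in F5 proximal cells, and CYP19A1 had 1 read in all.

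Follicle and position were fitted together with limma on log2(FPKM + 1) over all 4 libraries and the 11203 genes whose mean reached 1 FPKM. Proximal and distal libraries serve as the repeats of a stage, and they may stem from the same follicles, so a p-value reflects only how far these 4 libraries scatter. At an adjusted p of 0.05, 10.4% of all genes tested were higher and 35.8% lower in F1. Against this background 4 of the 7 steroid synthesis genes tested rose and 3 fell, and all 3 progesterone genes were among those that rose. On the log2 scale STAR rose by 2.68 (SE 0.137, limma adjusted p = 0.00796), HSD3B2 by 1.66 (SE 0.0958, limma adjusted p = 0.00907) and CYP11A1 by 1.46 (SE 0.128, limma adjusted p = 0.0109). The median difference over all genes tested was -0.33, and 0.01 after median-ratio scaling, so relative to most genes these rises were larger still. With that scaling they came to 3.06 for STAR, 2.05 for HSD3B2 and 1.85 for CYP11A1.

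The 3 genes did not gain in step. In F5, STAR had 0.627 of the FPKM of CYP11A1 in proximal (0.599 to 0.656) and 0.477 in distal cells (0.458 to 0.497). In F1, STAR exceeded CYP11A1, at 1.44 times its FPKM in proximal (1.41 to 1.47) and 1.13 times in distal cells (1.11 to 1.15). HSD3B2 held 60.9% to 69.8% of the summed FPKM of the 3 genes in every library, while STAR made up 11.6% (F5 proximal), 9.81% (F5 distal), 19.3% (F1 proximal) and 20.7% (F1 distal).

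CYP17A1 and HSD17B1 went the other way. CYP17A1 (ENSGALG00000008121, chromosome 6, 22924906 to 22927383) was low throughout, at 2.59 FPKM in F5 proximal, 2.17 in F5 distal, 0.135 in F1 proximal and 0.305 in F1 distal granulosa, on 71, 62, 4 and 7 reads. Both F1 libraries lay below both F5 libraries. FPKM was 19.2-fold lower in F1 than F5 for the proximal pair (7.18 to 72.4) and 7.12-fold for the distal pair (3.26 to 18.4). CYP17A1 fell by 1.47 (SE 0.191, limma adjusted p = 0.0145) on the log2(FPKM + 1) scale, which understates the change of a low gene. In a fit with voom weights on recovered reads its log2 difference was -3.40. At a mean of 1.3 FPKM, CYP17A1 passed the filter on low values only through its F5 libraries, so the filter favoured this direction. Without the filter the limma adjusted p was 0.0295. Of 4 theca and stroma markers tested, 1 (MYH11) was called lower in F1 and 0 higher, against 35.8% and 10.4% of all genes. NR2F2 (-1.44), PTCH1 (-0.30) and COL1A2 (-0.03) were not called. MYH11, a smooth muscle myosin, had 4.81 FPKM in F5 proximal, 4.03 in F5 distal, 0.763 in F1 proximal and 0.690 in F1 distal granulosa. MYH11 too passed the filter only through its F5 libraries, so the filter favoured its call as lower in F1. NR2F2, a nuclear receptor of theca and stroma, had 3.49, 5.65, 1.77 and 0.469 FPKM in that order. COL1A2, a fibrillar collagen chain, had 11.7, 6.93, 11.8 and 6.55 FPKM. The part of these markers in the CYP17A1 result was not tested.

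HSD17B1 (ENSGALG00000027429, chromosome 27, 4962219 to 4963268) was the most abundant gene of this arm in every library. It stood at 29.5 FPKM in F5 proximal, 14.7 in F5 distal, 15.7 in F1 proximal and 2.58 in F1 distal granulosa, on 314, 163, 181 and 23 reads. F5 proximal cells were the highest and F1 distal cells the lowest, and F5 distal and F1 proximal cells differed little. From F5 to F1 it was 1.88-fold lower in the proximal pair (1.56 to 2.27) and 5.70-fold lower in the distal pair (3.67 to 9.24). HSD17B1 fell by 1.50 (SE 0.339, limma adjusted p = 0.0332). This call was lost without the filter on low values (limma adjusted p = 0.0616), under median-ratio scaling (0.0504) and with voom weights (0.0501), and over all fits the limma adjusted p ran from 0.00617 to 0.0616.

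CYP19A1 (ENSGALG00000013294, chromosome 10, 8712476 to 8726241) had 1 read in F5 proximal cells, or 0.0371 FPKM, and 0 reads in the other 3 libraries. With 3 reads as the limit that a count of 0 allows, levels up to 0.103 to 0.133 FPKM remain possible in those libraries. CYP19A1 did not pass the filter, and 7 of the 8 genes were tested.

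Summed over each arm, the progesterone genes came to 714.3 FPKM in F5 proximal, 980.2 in F5 distal, 2409.7 in F1 proximal and 3456.1 in F1 distal granulosa. The androgen and estrogen genes summed to 32.1, 16.9, 15.9 and 2.89 FPKM in the same order. As the first sum went up the second went down, though the second differed little between F5 distal and F1 proximal cells. The ratio of the arms was 22.2 in F5 proximal (95% counting interval 20.0 to 24.7) and 58.1 in F5 distal cells (50.6 to 66.7). In F1 it was 152.0 in proximal (131.5 to 175.7) and 1197.7 in distal cells (824.1 to 1740.5). No interval overlapped another. HSD17B1 made up 87.1% to 99.1% of the androgen and estrogen sum, so the ratio follows that gene. Without HSD17B1 the ratio was 271.6 (F5 proximal), 451.0 (F5 distal), 17847.0 (F1 proximal) and 11322.1 (F1 distal), and then the F1 positions stood in the opposite order. With HSD3B2 set against CYP17A1 alone, the FPKM ratio was 192.2 (152.3 to 246.2) for F5 proximal and 314.0 (244.9 to 409.6) for F5 distal cells. In F1 the same ratio was 12019.8 (4694.3 to 44115.9) for proximal and 6899.9 (3348.7 to 17162.2) for distal cells, with overlapping intervals that rest on 4 and 7 reads of CYP17A1.

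**Figure D2:**
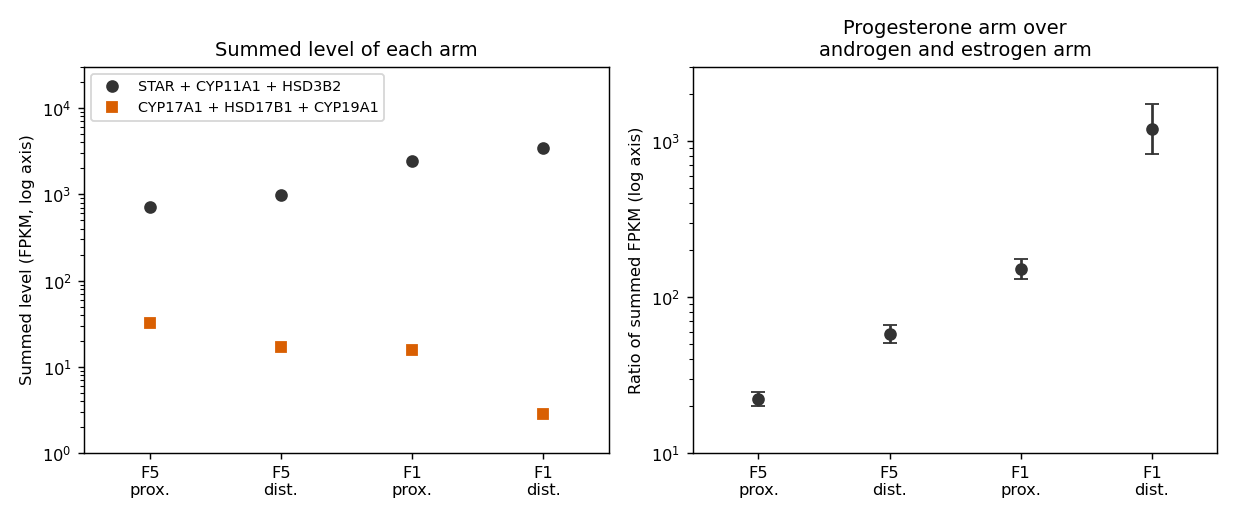
Left, summed FPKM (log axis) of STAR, CYP11A1 and HSD3B2 and of CYP17A1, HSD17B1 and CYP19A1 in each library; right, the ratio of these sums (log axis) with 95% counting intervals. The ratio went from 22.2 in F5 proximal to 1197.7 in F1 distal cells.

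NR5A1 (ENSGALG00000001080, chromosome 17, 9429011 to 9444852) stood at 405.3 FPKM in F5 proximal, 327.8 in F5 distal, 568.7 in F1 proximal and 573.0 in F1 distal granulosa. It was abundant in all 4 libraries and higher in both F1 libraries. NR5A1 rose by 0.65 (SE 0.119, limma adjusted p = 0.0230), 1.40-fold in FPKM in proximal (1.38 to 1.43) and 1.75-fold in distal cells (1.72 to 1.78). NR0B1 (ENSGALG00000016287, chromosome 1, 115358588 to 115360638) had the opposite direction. It stood at 50.3 FPKM in F5 proximal, 18.4 in F5 distal, 25.6 in F1 proximal and 7.81 in F1 distal granulosa.

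NR0B1 fell by 1.05 from F5 to F1 (SE 0.116, limma adjusted p = 0.0131), 1.97-fold in FPKM in proximal (1.76 to 2.21) and 2.36-fold in distal cells (1.90 to 2.96). The FPKM of NR5A1 was 8.05 times that of NR0B1 in F5 proximal (7.52 to 8.63), 17.8 times in F5 distal (15.9 to 19.9), 22.2 times in F1 proximal (20.3 to 24.4) and 73.4 times in F1 distal cells (60.9 to 89.2). The libraries therefore stood in the same order by the ratio of these regulators as by the ratio of the summed arms. Without HSD17B1 in the sum the F1 positions of the arm ratio stood in the opposite order (17847.0 proximal, 11322.1 distal). A link between the regulators and the arms was not tested.

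By position, NR0B1 and HSD17B1 stood higher in the proximal library of each follicle. NR0B1 was 2.73-fold higher in proximal than distal cells in F5 (2.40 to 3.11), a fold that was 3.28 in F1 (2.66 to 4.07), and HSD17B1 2.01-fold (1.66 to 2.44) and 6.09-fold (3.94 to 9.86). On the log2(FPKM + 1) scale, 2.18% of all genes in F5 and 5.18% in F1 had a proximal value at least 2-fold above the distal one. NR0B1 passed that size in both follicles and HSD17B1 in F1, with differences of 1.40 and 1.59 for NR0B1 and of 0.96 and 2.22 for HSD17B1. Markers of several cell types were higher in proximal cells too, by the values given above. These were the summed oocyte, theca and stroma, and endothelial markers, and the granulosa markers AMH and WT1. EMCN, part of the endothelial sum, and COL1A2, part of the theca and stroma sum, were also higher there. In F5, COL1A2 held 11.7 of the 24.6 FPKM of its sum in proximal and 6.93 of the 20.4 in distal cells. In the additive fit the log2 difference was 2.76 for AMH, 2.19 for WT1, 2.31 for EMCN and 0.72 for COL1A2, none of them called. WT1 and EMCN passed the filter on low values only through their proximal libraries, so the filter favoured this direction. Of 8 granulosa markers tested, 4 had a difference above 0 and 4 below. Those above were AMH, WT1, FSHR (0.47) and FOXL2 (0.24). Those below were CYP11A1 (-0.78), itself one of the progesterone genes studied here, ZP3 (-0.24), GJA1 (-0.20) and INHA (-0.13). The 2 largest differences, of AMH and WT1, were to the proximal side. NR2F2 of the theca and stroma list had 3.49 FPKM in F5 proximal and 5.65 in F5 distal cells. The part of these markers in the differences of NR0B1 and HSD17B1 was not tested.

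The progesterone genes leaned to distal cells by smaller amounts. CYP11A1 was 1.52-fold (1.48 to 1.56) and 1.963-fold (1.93 to 1.997) higher in distal cells of F5 and F1, STAR 1.16-fold (1.10 to 1.22) and 1.54-fold (1.51 to 1.58), and HSD3B2 1.37-fold (1.35 to 1.39) and 1.30-fold (1.29 to 1.31). None reached 2-fold on the log2(FPKM + 1) scale, as did 0.321% of all genes in F5 and 0.303% in F1. All genes tested had a median proximal minus distal log2 difference of 0.07 in F5 and 0.20 in F1, and of -0.04 in both under median-ratio scaling. With that scaling CYP11A1 in F1 passed 2-fold. In the authors' deposited table the log2 fold change of proximal against distal cells for CYP11A1 was -0.70 in F5 and -1.21 in F1. Its log2 ratio of FPKM was -0.60 in F5 and -0.97 in F1. For the 7 genes tested, the values in the authors' deposited table lay a constant 0.09 in F5 and 0.24 in F1 below the log2 ratio of FPKM. The median offset was the same over all 8306 genes in F5 and 7395 in F1 with a mean of at least 5 FPKM in that follicle. It is thus not particular to these 7 genes.

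**Figure D3:**
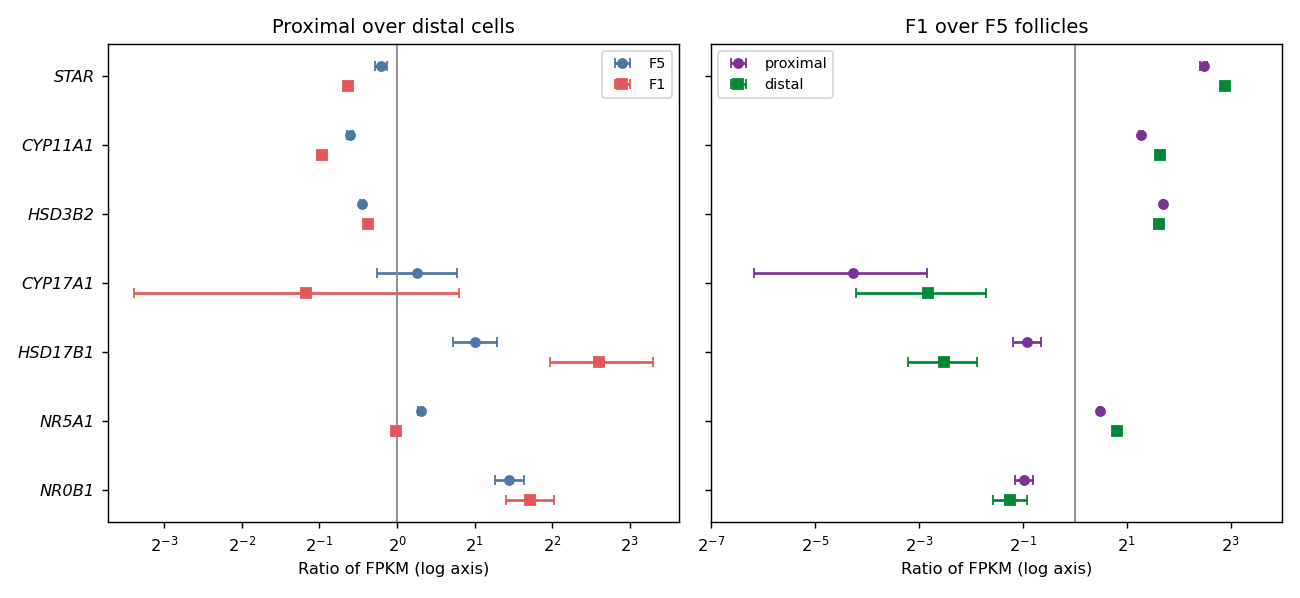
Ratios of FPKM (log axes) of proximal over distal cells in F5 and F1 (left) and of F1 over F5 in proximal and distal cells (right) for 7 genes, with 95% exact binomial counting intervals. CYP19A1, with 1 read in F5 proximal cells and 0 in every other library, is left out. NR0B1 and HSD17B1 lay right of 1 on the left and left of 1 on the right, and STAR, CYP11A1 and HSD3B2 the reverse.

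Between the follicles, 3 of the 7 genes tested were at least 2-fold higher in F1 in proximal cells (4.46% of all genes) and 1 at least 2-fold lower (9.85%). In distal cells 3 were higher (5.36%) and 3 lower (17.8%).

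In the additive limma fit of position, 0 of the 7 genes and 0% of the 11203 genes tested passed an adjusted p of 0.05. Unadjusted p-values lay below 0.05 for 5 of the 7 genes and for 1535 of all genes, and limma with voom weights also called 0. NR0B1 came nearest, at a log2 difference of 1.50 (SE 0.116, limma adjusted p = 0.103), which ran from 0.0127 with a pseudocount of 5 FPKM to 0.162 without the filter. CYP11A1 had -0.78 (SE 0.128, limma adjusted p = 0.198), HSD17B1 1.59 (SE 0.339, limma adjusted p = 0.268) and HSD3B2 -0.41 (SE 0.0958, limma adjusted p = 0.281). Whether position differed in effect between the follicles cannot be tested here, since that interaction takes the only residual degree of freedom. As values, the proximal minus distal difference was larger in F1 than in F5 by 1.27 for HSD17B1 and by 0.19 for NR0B1, and it was 0.42 further to the distal side for STAR and 0.37 for CYP11A1. For HSD3B2 it moved the other way, by 0.08, from -0.45 in F5 to -0.38 in F1.

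**Figure D4:**
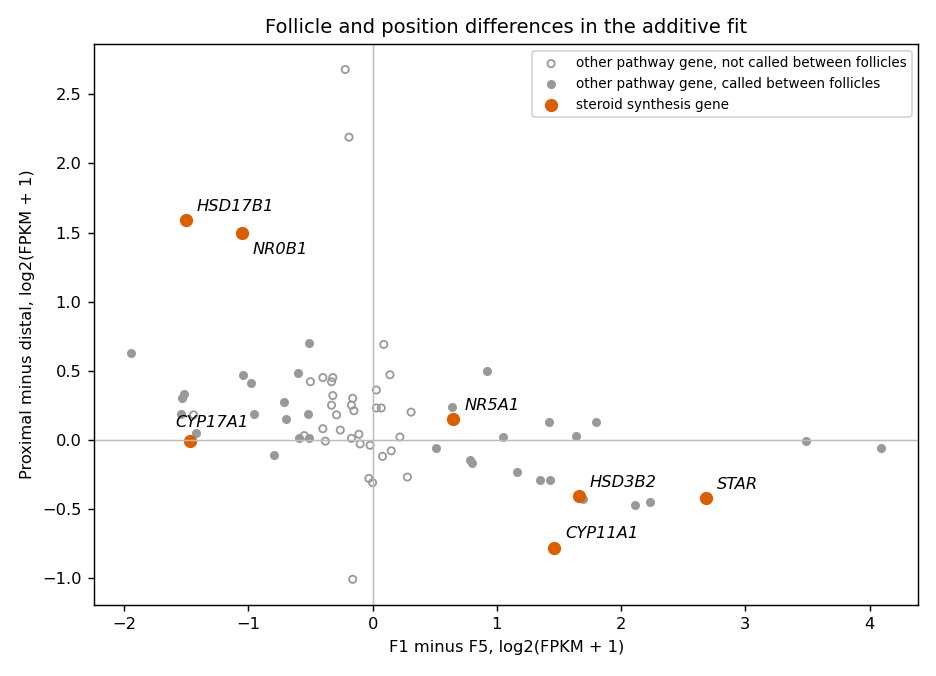
Differences on the log2(FPKM + 1) scale in the additive limma fit, F1 minus F5 against proximal minus distal, for 7 steroid synthesis genes and the other pathway genes. STAR, HSD3B2 and CYP11A1 lay at lower right, and HSD17B1 and NR0B1 at upper left.

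CYP11A1 receives electrons from adrenodoxin, which the FDX1 gene encodes. The tables held 2 rows whose protein domain annotation was adrenodoxin but whose name was not FDX1, and they were not counted among the members. The row ENSGALG00000004692 (chromosome 4, 172430 to 174432), which carries no gene name, had 273.7 FPKM in F5 proximal, 333.7 in F5 distal, 964.0 in F1 proximal and 1131.3 in F1 distal granulosa. It rose by 1.79 (SE 0.0906, limma adjusted p = 0.00796) and its distal libraries were the higher, by 1.22-fold (1.17 to 1.27) for F5 and 1.17-fold (1.15 to 1.20) for F1. The row ENSGALG00000026507 (chromosome 1, 178819330 to 178835807) had 15.4, 17.3, 9.64 and 11.1 FPKM in that order. It fell by 0.61 (SE 0.115, limma adjusted p = 0.0239), against a median of -0.33 over all genes tested. The first row thus had the directions of the progesterone genes in both contrasts, and the second only the higher distal values.

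Of the electron carriers of microsomal P450 enzymes and related redox genes, 2 of 5 rose and 0 fell. Over all genes tested the shares were 10.4% and 35.8%. CYB5A, cytochrome b5, which aids the lyase reaction of CYP17A1, rose by 1.64 (SE 0.108, limma adjusted p = 0.00951). Its F5 libraries had 47.3 and 42.6 FPKM, its F1 libraries 137.2 and 146.4. CYB5R3, its reductase, rose by 0.80 (SE 0.111, limma adjusted p = 0.0151). POR, which supplies electrons to CYP17A1 and CYP19A1, stood between 99.6 and 110.8 FPKM in all 4 libraries, CYB5B between 44.5 and 69.5 and H6PD between 7.17 and 13.8. CYB5A was thus higher in F1, where CYP17A1 was lowest, while POR differed little between the libraries.

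Of 109 other pathway genes listed, 79 were found and 67 tested; 17 rose and 16 fell from F5 to F1, or 25.4% and 23.9%, against 10.4% and 35.8% of all genes. Under median-ratio scaling 25 rose and 8 fell, against 19.5% higher and 16.8% lower of all genes. Their median difference was -0.16, against -0.33 for all genes tested. Among genes of cholesterol supply 5 of 13 rose and 3 fell. NPC2, which moves cholesterol out of lysosomes, rose by 2.11 (SE 0.136, limma adjusted p = 0.00951). Its FPKM was 4631.0 in F5 proximal, 6032.5 in F5 distal, 18729.6 in F1 proximal and 27754.8 in F1 distal granulosa. STARD4, a cytosolic cholesterol carrier, rose by 1.69 (SE 0.124, limma adjusted p = 0.0105), with 4.34, 5.97, 15.6 and 22.2 FPKM in that order. Both were higher in distal cells in each follicle, as STAR was. SCARB1, the receptor of high density lipoprotein, NCEH1, which hydrolyses cholesterol esters, and VDAC1, a mitochondrial outer membrane channel, rose as well. TSPO (-0.98), an outer mitochondrial membrane protein, fell, as did OSBPL2 (-0.95) and ACBD3 (-0.60), against the median of -0.33 over all genes. ACBD3, which binds TSPO, had a proximal minus distal difference of 0.48 (limma adjusted p = 0.271).

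Among other steroid enzymes 2 of 13 tested rose and 5 fell, shares of 15.4% and 38.5% that lay near the 10.4% and 35.8% of all genes. CYP1B1, which hydroxylates estrogens, rose by 2.23 (SE 0.259, limma adjusted p = 0.0134). Both F5 libraries had 3.26 FPKM, F1 proximal cells 13.6 and F1 distal cells 26.3. HSD17B7, which also acts in cholesterol synthesis, rose by 1.35 (SE 0.103, limma adjusted p = 0.0105). SRD5A3, a steroid reductase family member that acts on polyprenol, fell by 1.53 (SE 0.160, limma adjusted p = 0.0128). Others that fell included CYP21A2 (-1.94), SULT1E1 (-0.79), which sulfates estrogens, and HSD17B4 (-0.59). The median over all genes tested was -0.33.

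Among regulators 3 of 16 tested rose and 5 fell, or 18.8% and 31.2%, also near the shares of all genes. With voom weights 2 rose and 5 fell. GATA4 and CEBPB, transcription factors that bind the STAR promoter in mammals, fell by 1.52 (SE 0.132, limma adjusted p = 0.0109) and by 1.54 (SE 0.119, limma adjusted p = 0.0105). GATA4 went from 225.8 and 206.4 to 89.6 and 62.0 FPKM, whereas GATA6 stood between 233.0 and 276.4 FPKM in all libraries. NR2F1, an orphan nuclear receptor, fell by 1.42 (SE 0.120, limma adjusted p = 0.0109). CREB1 (-0.51) and ATF1 (-0.52) fell less, against a median of -0.33 over all genes tested. FOXL2, CREM and CITED2, a transcriptional coregulator, rose. CITED2 had a proximal minus distal difference of 0.50 (limma adjusted p = 0.244). NR5A2, the relative of NR5A1, stood between 137.8 and 177.8 FPKM, below NR5A1 in each library.

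Of receptors, 2 of 9 tested rose and 1 fell, or 22.2% and 11.1%, against 10.4% and 35.8% of all genes. LHCGR, the luteinizing hormone receptor, rose by 4.09 (SE 0.142, limma adjusted p = 0.00544), and FSHR, the follicle stimulating hormone receptor, fell by 1.04 (SE 0.198, limma adjusted p = 0.0242). ESR1, an estrogen receptor, rose by 1.80 (SE 0.130, limma adjusted p = 0.0105). Its F5 libraries had 4.96 and 4.12 FPKM, its F1 libraries 18.5 and 17.9. PGR, the nuclear progesterone receptor, reached at most 0.157 FPKM. In the cyclic AMP pathway, through which luteinizing hormone acts, 3 of 11 rose and 2 fell. These shares were 27.3% and 18.2%, against the same 10.4% and 35.8% of all genes. PDE4D, a phosphodiesterase that degrades cyclic AMP, rose by 3.49 (SE 0.104, limma adjusted p = 0.00544), and its F1 libraries had 91.5 and 95.6 FPKM against 7.52 and 7.25 in F5. ADCY9 and PRKAR2A rose as well. PRKAR1A (-0.70) and AKAP1 (-0.51), a mitochondrial anchor of protein kinase A, fell, against a median of -0.33 over all genes tested. AKAP1 leaned to proximal cells, with a difference of 0.70 (limma adjusted p = 0.188). For position 0 of the 67 genes were called, and limma with voom weights called 0. Unadjusted limma p-values lay below 0.05 for 18 of the 67, against 1535 of the 11203 genes tested.

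By Euclidean distance between centred log2(FPKM + 1) values over the 4 libraries, among 6180 other named genes whose mean reached 5 FPKM, the profile of STAR was nearest to those of FADS6 (distance 0.132), ZP3 (0.184) and AKAP2 (0.193). CYP17A1 was nearest to CCDC186 (0.177), ZNF423 (0.195) and MAPK8IP1 (0.253). The added 1 FPKM shrinks the change of so low a gene. From F5 to F1 the log2(FPKM + 1) difference of CYP17A1 was -1.66 (proximal pair) and -1.28 (distal pair). Its FPKM was 19.2-fold and 7.12-fold lower. CCDC186 stood at 21.2 FPKM or more in F5 and at 6.78 or less in F1. The distances of CYP17A1 therefore cannot tell whether these genes share its profile in FPKM. With 1 read in all, CYP19A1 is flat on this scale by its near absence. Its nearest genes, RPS6KA6, TBK1 and RSBN1, with about equal levels in all 4 libraries, therefore say nothing about its profile.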

How the data were processed

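Poly-A selected RNA of 4 libraries was used, 1 per group. The deposited tables held FPKM values that the authors had computed, and log2 fold changes (proximal over distal) by the authors, per the file headers. TopHat2 2.0.12 and HTSeq 0.6.1 are named in the submitters' processing notes. No build is named, so coordinates follow the files as they stand. The listed gene lengths differ from those behind FPKM for most genes.

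Library totals and whole reads were recovered from FPKM (16893 of 16894 genes above 0, tolerance 1e-06), as the smallest whole numbers that could be fitted. The totals are inferred: 621 to 707 genes gave the total used, and 559 to 598 gave the next candidate, which was 2 times as large in each library. Ratios have 95% Clopper-Pearson intervals, and the arm ratio one from a normal approximation.

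Python 3.11.15, R 4.3.3 and limma 3.58.1 were used (additive fit, two-sided, Benjamini-Hochberg adjustment, threshold 0.05, pseudocount 1 FPKM, 1 residual degree of freedom). The fit was tested on simulated data in which genes changed by position only, and only its calls by position were scored. Calls between follicles were not covered by this. Where every gene had the same small spread beyond counting noise, the fit called more unchanged genes than its threshold allows. Where that spread varied between genes, few calls were false, but this setting was chosen after the first outcome was seen. Adjusted p-values here may thus be too small. Size was judged by a 2-fold rule.

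The genes and lists were chosen with earlier results of these data known. Named other genes were the 5 largest rises and falls called between follicles, the 3 leading genes by position in each direction (mean of at least 5 FPKM) and every gene of short lists. Other genes, named where a count was 5 or fewer or for their level, were chosen after their values were seen. Names were matched to a RefSeq table of assembly GRCg7b, where all 8 genes were found. Alternatives were other pseudocounts, filters and scalings, voom weights and other members in the arm sums.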

Additional observations from a re-analysis of the deposited data

Results flagged for a closer look

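The proximal minus distal difference had opposite signs in the follicles for 2 of the 8 genes, on the log2(FPKM + 1) scale. CYP17A1 was 0.18 in F5 and -0.20 in F1, a change of -0.38, on 71, 62, 4 and 7 reads, and the counting intervals of both FPKM ratios included 1 (0.837 to 1.71 in F5 and 0.0950 to 1.74 in F1). NR5A1 was 0.31 in F5 and -0.01 in F1, a change of -0.32. Its ratio in F5 lay above 1 (1.21 to 1.26) and that in F1 included 1 (0.977 to 1.01). Neither difference between the follicles was tested, since each group had 1 library.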

How the results depend on the processing

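The calls between follicles held in all 8 fits for STAR, CYP11A1, HSD3B2, NR5A1 and NR0B1, in all 7 that could take CYP17A1, and in 5 of 8 for HSD17B1, as given above. Under median-ratio scaling all genes called higher and lower came to 2175 and 1878, against 1168 and 4010, and other pathway genes called lower to 8, against 16. For position, a pseudocount of 5 FPKM called 154 genes higher and 5 lower, with 1 member (NR0B1) and 2 other pathway genes higher. The uncalled position difference of CYP17A1 (-0.01) changed sign to 0.02 with that pseudocount and to 0.04 with voom weights, and that of NR5A1 (0.15) to -0.05 under median-ratio scaling; the cause was not tested.

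By the 2-fold rule, 1 member (CYP11A1) was lower in F1 proximal than distal cells under median-ratio scaling, against 0. From F5 to F1 in proximal cells 0 were lower, against 1, with a pseudocount of 5 FPKM or a filter at 5 FPKM, and in distal cells 1 was lower with that pseudocount, against 3. The ratio of the arms cancels any scaling. Without STAR it was 19.6 in F5 proximal and 122.7 in F1 proximal cells, and without CYP17A1, a choice made after seeing the data, 66.7 in F5 distal cells. Without HSD17B1 it was 271.6, 451.0, 17847.0 and 11322.1 in the order given above. From mean log2(FPKM + 1) it was 36.7 (F5 proximal), 234.4 (F1 proximal) and 589.8 (F1 distal). No paired analysis was possible because each group had 1 library, so no replicate number could serve as a block; the additive fit itself compares positions within follicles. Depth limits CYP17A1 and CYP19A1, on at most 71 reads in a library, and 1 library per group limits every difference.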

Other observations

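The following 4 genes of low level were picked after their values were seen. AKR1D1, a reductase that inactivates progesterone and other steroids, stood at 7.25 FPKM in F5 proximal, 0.892 in F5 distal, 9.41 in F1 proximal and 0.111 in F1 distal granulosa, on 156, 20, 219 and 2 reads. It was 8.13-fold higher in proximal cells of F5 (95% counting interval 5.09 to 13.7) and 84.8-fold in F1 (23.2 to 704.3). Its log2 difference in the additive fit was 2.68 (limma adjusted p = 0.140). AKR1D1 passed the filter on low values only through its proximal libraries, so the filter favoured this direction. CYP21A2, which leads progesterone towards corticosteroids, had 6.52, 5.88, 1.76 and 0.265 FPKM in the same order and fell by 1.94 (SE 0.293, limma adjusted p = 0.0170). HSD17B2, which oxidises estradiol to estrone, had 20 reads in F5 proximal cells, 1 each in F5 distal and F1 proximal cells and 0 in F1 distal cells. WT1, a transcription factor of the regulator list, stood at 4.62 and 4.51 FPKM in F5 and F1 proximal cells. In distal cells it had 0.376 and 0.0780 FPKM (limma adjusted p = 0.103). The filter on low values favoured this direction for WT1 too. The oocyte markers summed to 15.5 and 9.2 FPKM in the proximal and 1.12 and 0.348 FPKM in the distal libraries, and their part in these position differences was not tested.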
